A study of Homo sapiens with 8 samples.

Results

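The GATA and early endoderm factors described here are 7 transcription factor genes, GATA4, GATA6, FOXA2, HHEX, SOX17, GATA2 and GATA3. They were taken by symbol, whatever their values, from the 27317 gene symbols counted in 8 RNA-seq libraries. The cells were MEL1, an established line of human embryonic stem cells (ESCs). The study asked which genes change in ESCs and in early mesoderm after dioxin exposure at the ESC stage. There were 4 groups of 2 libraries. The TCDD D2 group came from cells that, while still ESCs, received TCDD at 2 nM in DMSO, and were then taken through 2 days of cardiac differentiation. TCDD is a dioxin and a ligand of AHR, the aryl hydrocarbon receptor. The DMSO D2 group had the same volume of DMSO alone and the same differentiation. The TCDD D1 and DMSO D1 groups had the same exposures and were sampled just before differentiation began. Differentiation used RPMI with B27 lacking insulin and 5 µM CHIR99021, a GSK3 inhibitor that switches on Wnt signalling, and both D2 groups received it. All 8 libraries thus came from 1 cell line. The sources used here do not give how long TCDD was present.

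GATA factors are zinc finger proteins that bind the DNA word GATA. GATA4 and GATA6 act in endoderm and in the heart-forming mesoderm, whereas GATA2 and GATA3 act in blood precursors, trophoblast and amnion. FOXA2, a forkhead factor that can bind closed chromatin, HHEX, a homeobox repressor, and SOX17, an HMG box factor, mark endoderm that forms at the anterior primitive streak under high Nodal signalling. Under GSK3 inhibition, ESCs pass through a primitive streak state that expresses T and MIXL1 before they become mesoderm or endoderm.

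GATA4, FOXA2, HHEX and GATA6 were higher at D2 than at D1, with TCDD and with DMSO. GATA3 was lower at D2 in both, GATA2 was lower with TCDD, and SOX17 was hardly counted at all. TCDD was associated with lower GATA4 and GATA6 at D2, while neither FOXA2 nor HHEX passed the test there. At D1 no member passed. Levels are in CPM, read counts scaled to the library total, given as mean ± SD over the 2 libraries of a group. Fold changes are on the log2 scale with their standard error (SE), and a gene was called changed at an edgeR adjusted p under 0.05.

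The libraries held 34873055 to 43770420 counts each. A TCDD response was present in the labelled libraries. CYP1A1, a cytochrome P450 that is a classic AHR target, stood at 2.19 ± 0.529 CPM in TCDD D2 and 0.378 ± 0.122 CPM in DMSO D2, and at 89.4 ± 16.5 CPM in TCDD D1 and 0.787 ± 0.0373 CPM in DMSO D1. Stem cell markers were well counted in all 4 groups, so their level does not by itself identify the D2 cells. The summed level of 10 stem cell markers was 6456 to 6590 CPM in TCDD D2, 6167 to 6224 CPM in DMSO D2, 7488 to 7680 CPM in TCDD D1 and 7779 to 8296 CPM in DMSO D1, and none of the 10 was at 0 in any group. Neuroectoderm markers were low, with 8 genes summing to between 2.67 and 4.24 CPM in every library. In bulk RNA such as this, fewer cells of a type and less RNA per cell cannot be told apart.

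**Figure D1:**
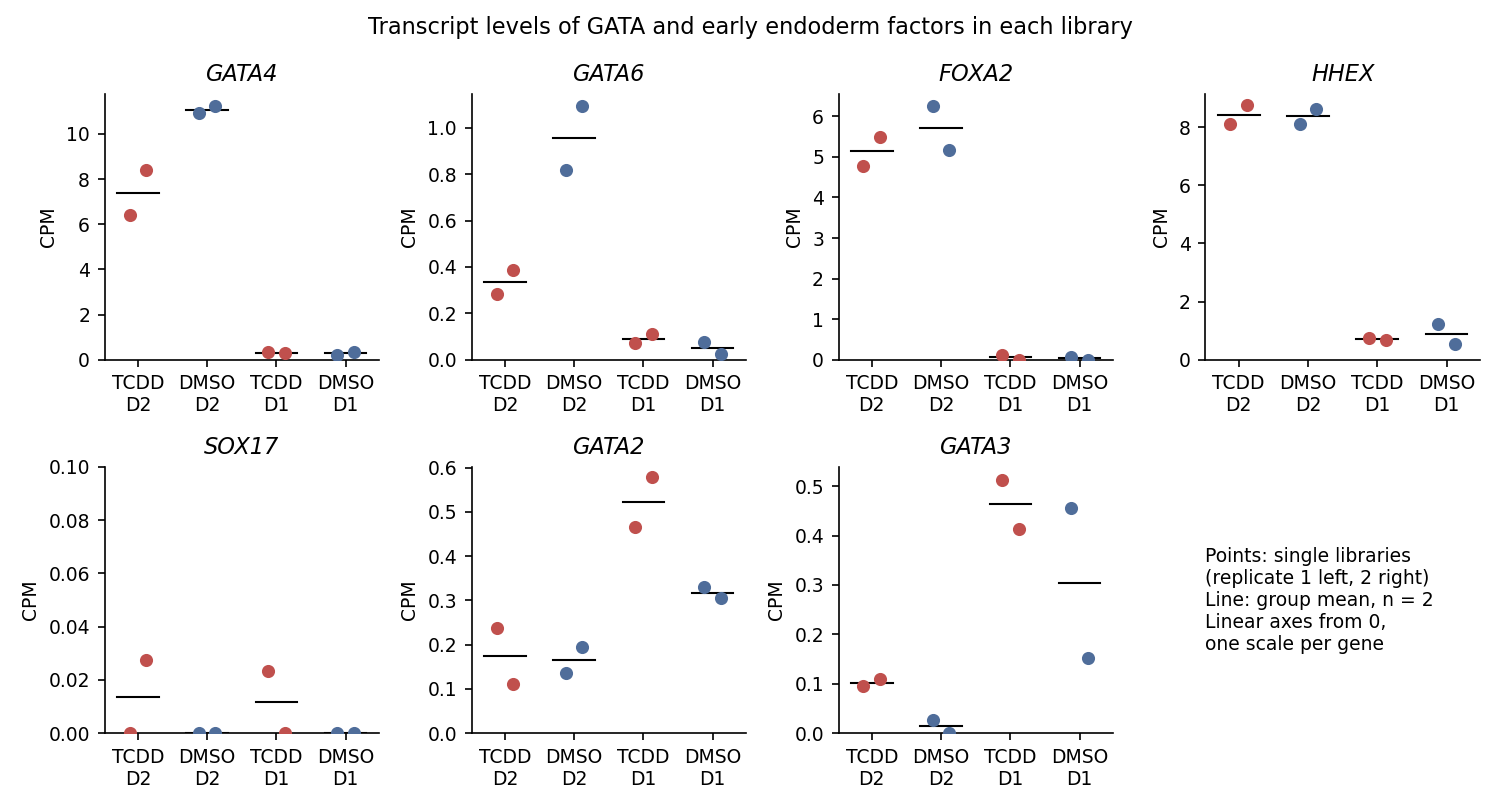
Level of each gene in each library, in CPM (linear axes that start at 0, with a separate scale per gene). Points are single libraries and lines are group means (n = 2). GATA4, GATA6, FOXA2 and HHEX are higher at D2 than at D1, and only for GATA4 and GATA6 do both TCDD D2 points lie below both DMSO D2 points.

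The stretch upstream of the transcription start is shown for GATA6, which had the largest called difference with TCDD at D2 among the members, and for GATA2, in whose window the core of the AHR response element was found. Each is the 250 bases before the start, from RefSeq on GRCh38.p14, in lower case with any match to GCGTG or its reverse complement in capitals. The GATA6 window is chr18:22169339-22169588 on the plus strand and the GATA2 window is chr3:128493202-128493451 on the minus strand.
GATA6: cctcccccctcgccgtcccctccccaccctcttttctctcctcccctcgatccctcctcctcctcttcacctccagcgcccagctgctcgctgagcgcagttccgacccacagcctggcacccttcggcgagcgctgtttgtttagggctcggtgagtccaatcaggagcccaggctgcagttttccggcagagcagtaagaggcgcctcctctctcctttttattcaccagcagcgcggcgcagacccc
GATA2: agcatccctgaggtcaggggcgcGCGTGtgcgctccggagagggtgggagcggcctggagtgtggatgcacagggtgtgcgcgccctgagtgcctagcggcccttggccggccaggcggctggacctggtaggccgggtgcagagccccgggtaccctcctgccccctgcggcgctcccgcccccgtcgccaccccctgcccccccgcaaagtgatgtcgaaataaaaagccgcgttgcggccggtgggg
All motifs were searched on both strands, and none contains another. The GATA6 window held no match to GCGTG and 1 match to CAGAC, the SMAD binding box. The GATA2 window held 1 match to GCGTG. A second GATA2 start also had 1 match, and 1 of 6 annotated GATA3 windows had one. The HHEX window held none, and 1 match to GATAA, the core that GATA factors bind. CAGAC was also found in the second GATA2 window and in some GATA3 windows, and GATAA in a GATA3 window. For scale, GCGTG was found in 32.2% of 35116 such windows, GATAA in 20.4% and CAGAC in 38.0%, so a match is a common event and describes these letters only. No windows of GATA4, FOXA2 or SOX17 were used here.

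GATA4 showed the clearest difference between TCDD and DMSO after differentiation. It had 270 and 305 counts in the TCDD D2 libraries, 400 and 462 in the DMSO D2 libraries, 14 and 10 in the TCDD D1 libraries, and 9 and 14 in the DMSO D1 libraries. The D2 groups did not overlap after scaling, since the TCDD libraries stood at 6.41 and 8.39 CPM and the DMSO libraries at 10.9 and 11.2 CPM, whereas the D1 groups overlapped. GATA4 averaged 7.40 ± 1.40 CPM in TCDD D2 and 11.1 ± 0.227 CPM in DMSO D2, a log2 fold change of -0.59 ± 0.12 (95% interval -0.83 to -0.35, edgeR adjusted p = 0.00413), or 1.51-fold lower. At D1 it averaged 0.301 ± 0.0363 CPM with TCDD and 0.292 ± 0.0902 CPM with DMSO, a difference of 0.05 ± 0.44 (edgeR adjusted p = 0.988). The TCDD D2 libraries lay further apart from each other than the DMSO D2 libraries did.

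GATA6, the close relative of GATA4, was less abundant at D2 and had the larger estimated difference. It had 12 and 14 counts in the TCDD D2 libraries and 30 and 45 in the DMSO D2 libraries. In the D1 groups it had 3 and 4 counts with TCDD, and 3 and 1 with DMSO. Both TCDD D2 libraries were below both DMSO D2 libraries, and all 4 D2 libraries were above the 4 D1 libraries. The mean was 0.335 ± 0.0710 CPM in TCDD D2 and 0.957 ± 0.195 CPM in DMSO D2, a log2 fold change of -1.53 ± 0.32 (95% interval -2.20 to -0.86, edgeR adjusted p = 0.00795). The ratio of summed counts, 26 against 75, was 0.343 after scaling, with an exact 95% interval of 0.211 to 0.543 that covers counting error only. At D1 the groups overlapped at 0.0900 ± 0.0284 CPM in TCDD D1 and 0.0507 ± 0.0358 CPM in DMSO D1 (edgeR adjusted p = 0.835).

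Both calls at D2 rested on 2 libraries a group. Without TCDD replicate 1 of D2, the log2 fold change was -0.40 for GATA4 (edgeR adjusted p = 0.120) and -1.31 for GATA6 (edgeR adjusted p = 0.110). Without DMSO replicate 2 of D2 it was -0.57 for GATA4 (edgeR adjusted p = 0.0547) and -1.30 for GATA6 (edgeR adjusted p = 0.167). DESeq2 also called GATA4 (adjusted p = 0.0484), and gave GATA6 an unadjusted p of 0.0122 and no adjusted p.

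FOXA2 was nearly uncounted in ESCs and well counted at D2, and its TCDD and DMSO libraries overlapped at both times. It had 201 and 200 counts in TCDD D2, 229 and 213 in DMSO D2, 5 and 0 in TCDD D1, and 3 and 0 in DMSO D1. At D2 it averaged 5.14 ± 0.517 CPM with TCDD and 5.72 ± 0.756 CPM with DMSO, a log2 fold change of -0.15 ± 0.16 (95% interval -0.50 to 0.19, edgeR adjusted p = 0.752). At D1 the mean was 0.0583 ± 0.0825 CPM with TCDD and 0.0380 ± 0.0538 CPM with DMSO, each set by 1 library (edgeR adjusted p = 0.922).

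HHEX was the member closest to equal at D2. It had 342 and 318 counts in TCDD D2, 297 and 355 in DMSO D2, 32 and 24 in TCDD D1, and 48 and 21 in DMSO D1. Both time points overlapped, and the DMSO D1 libraries lay on either side of the TCDD D1 libraries. At D2 HHEX averaged 8.43 ± 0.447 CPM with TCDD and 8.37 ± 0.375 CPM with DMSO, a log2 fold change of 0.01 ± 0.13 (95% interval -0.26 to 0.28, edgeR adjusted p = 0.992). At D1 it averaged 0.703 ± 0.0607 CPM in TCDD D1 and 0.875 ± 0.483 CPM in DMSO D1 (edgeR adjusted p = 0.811). The 95% interval of GATA4 at D2, -0.83 to -0.35, lay below that of HHEX but overlapped that of FOXA2, -0.50 to 0.19. The difference between genes was not tested.

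SOX17, a defining marker of definitive endoderm, had 1 count in TCDD D2 replicate 2, 1 count in TCDD D1 replicate 1 and none in the other libraries. It was too low to test. The 0 counts in DMSO D2 allow a level of up to 0.0386 CPM, from 3 counts over the group. FOXA2 and HHEX were thus counted at D2 beside at most 1 SOX17 count a library, and the label of early endoderm factors describes the genes, not the cells.

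GATA2 and GATA3 had few counts, most of them in ESCs. GATA2 had 10 and 4 counts in TCDD D2, 5 and 8 in DMSO D2, 20 and 21 in TCDD D1, and 13 and 12 in DMSO D1. The D2 groups overlapped, while at D1 both TCDD libraries lay above both DMSO libraries. GATA2 averaged 0.522 ± 0.0788 CPM in TCDD D1 and 0.317 ± 0.0174 CPM in DMSO D1, a log2 fold change of 0.70 ± 0.36 that did not pass (edgeR adjusted p = 0.529). At D2 the difference was 0.09 ± 0.54 (edgeR adjusted p = 0.969).

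GATA3 had 4 and 4 counts in TCDD D2, 1 and 0 in DMSO D2, 22 and 15 in TCDD D1, and 18 and 6 in DMSO D1. At D2 both TCDD libraries were above both DMSO libraries, but 8 counts stood against 1. Their ratio was 7.92 with an exact 95% counting interval of 1.06 to 352, and the test did not pass (edgeR adjusted p = 0.308). At D1 the GATA3 libraries overlapped, at 0.463 ± 0.0709 CPM in TCDD D1 and 0.304 ± 0.215 CPM in DMSO D1 (edgeR adjusted p = 0.690).

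In counts, 6 of the 7 genes were tested and SOX17 was not. At D2, 0 were higher and 2 lower with TCDD than with DMSO, where 2.90% of 17268 genes were called, 1.40% higher and 1.50% lower. The median log2 fold change over all tested genes was 0.00. At D1, where 1.14% of genes were called, 0.735% higher and 0.405% lower, 0 of 6 members passed the edgeR test, 0 had an unadjusted p under 0.05, and DESeq2 called 0.

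**Figure D2:**
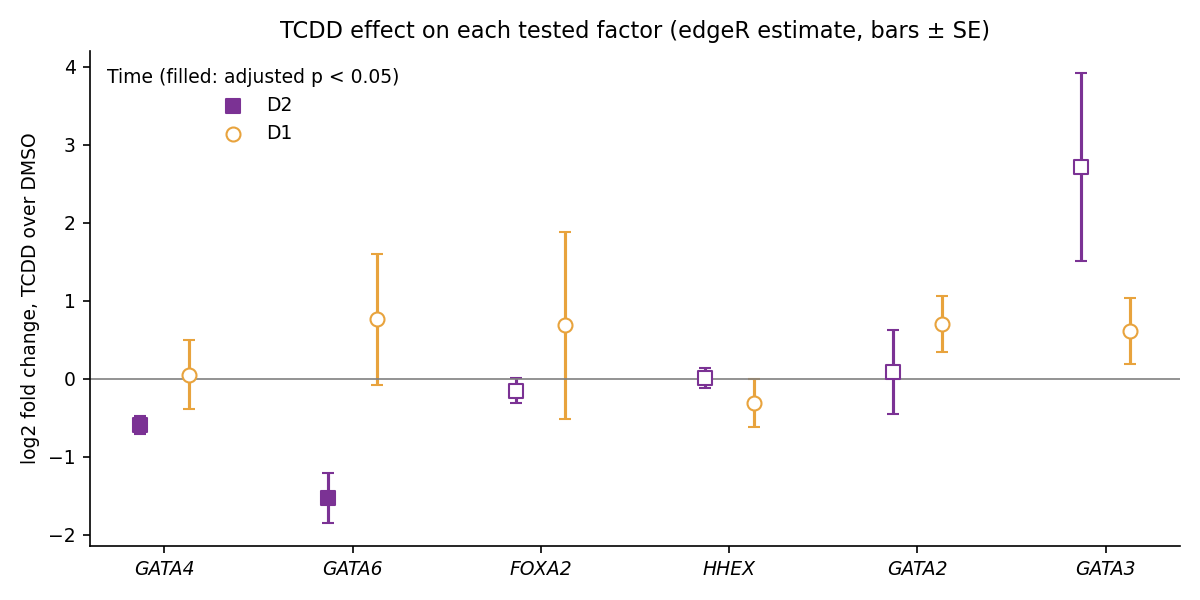
TCDD effect on the 6 tested genes, as the log2 fold change of TCDD over DMSO (y axis) at D2 (squares) and D1 (circles), with bars of ± SE. Filled symbols passed an edgeR adjusted p of 0.05. GATA4 (-0.59) and GATA6 (-1.53) at D2 are the filled points, and the wide bars of GATA3 at D2 and of FOXA2 and GATA6 at D1 belong to groups with few counts.

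Whether the TCDD effect differed between the times was tested as the effect at D2 minus the effect at D1. None of the 6 tested members passed the edgeR test, where 0.822% of all genes did (0.527% in the higher and 0.295% in the lower direction), 1 had an unadjusted p under 0.05, and DESeq2 called 0. The largest in size was GATA6, at -2.29 ± 0.92 (edgeR adjusted p = 0.358). GATA4 gave -0.64 ± 0.46 (edgeR adjusted p = 0.688), with a 95% interval of -1.61 to 0.32. The low ESC level makes this comparison imprecise, since GATA4 had 24 counts in TCDD D1 and 23 in DMSO D1, and GATA6 had 7 and 4. A D2 effect of TCDD on GATA4 and GATA6 is therefore not shown to differ from that at D1.

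Nearly all the tested members differed between D2 and D1. The differentiation medium, CHIR99021 and the 2 days go together in this comparison and cannot be told apart. With TCDD, 4 of 6 were higher at D2 than at D1 and 2 lower, and with DMSO 4 were higher and 1 lower. These counts are not a result about the members, because 65.3% of all genes were called with TCDD (33.1% higher and 32.2% lower) and 63.2% with DMSO (32.5% higher and 30.7% lower). The median log2 fold change over all genes was 0.00 with TCDD and 0.01 with DMSO, beside which the members' own sizes follow.

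FOXA2 had the largest change of the 6. Its log2 fold change, D2 over D1, was 6.27 ± 0.38 with TCDD (edgeR adjusted p = 9.81e-11) and 7.11 ± 0.41 with DMSO (edgeR adjusted p = 4.55e-11). In summed counts FOXA2 had 401 at D2 and 5 at D1 with TCDD, a ratio of 80.9 with an exact 95% interval of 34.4 to 251. With DMSO it had 442 and 3, a ratio of 149 with an interval of 50.8 to 727. These intervals overlap and cover counting error only. In each arm the D1 counts came from 1 library, replicate 1. Without TCDD replicate 1 of D1 the log2 fold change with TCDD was 10.63, and without replicate 2 it was 5.42. Without DMSO replicate 1 of D1 the value with DMSO was 10.81, and without replicate 2 it was 6.17. FOXA2 was called in these 4 fits. The higher value of each arm is fitted against 0 counts, so it depends on the prior count and is no bound.

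GATA4 followed, at 4.59 ± 0.22 with TCDD (edgeR adjusted p = 2.54e-13) and 5.23 ± 0.21 with DMSO (edgeR adjusted p = 1.02e-14), or 24.1-fold and 37.6-fold. HHEX changed by 3.57 ± 0.20 with TCDD and 3.25 ± 0.19 with DMSO (edgeR adjusted p = 8.35e-12 and 1.92e-11), or 11.9-fold and 9.54-fold. Of these 3 genes, HHEX had the smallest induction in both arms. With a library left out, the change with DMSO ran from 2.78 to 3.97 for HHEX and from 3.61 to 5.08 for GATA6. The highest value of each came without DMSO replicate 1 of D1. GATA6 changed by 1.87 ± 0.55 with TCDD (edgeR adjusted p = 0.00513) and 4.16 ± 0.48 with DMSO (edgeR adjusted p = 1.98e-07). Without TCDD replicate 1 of D1 the GATA6 change with TCDD was 1.57 (edgeR adjusted p = 0.0577). The difference between the TCDD and DMSO inductions of a gene is the same quantity as the difference of the TCDD effects given above, and passed for none of the 6.

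GATA3 and, with TCDD, GATA2 moved the other way. GATA3 changed by -2.16 ± 0.55 on the log2 scale with TCDD (edgeR adjusted p = 0.00165) and by -4.26 ± 0.93 with DMSO (edgeR adjusted p = 4.50e-04). The DMSO value rests on 1 count at D2 and 24 at D1, a ratio of 0.0422 with an exact 95% interval of 0.00103 to 0.259. Leaving out DMSO replicate 1 of D2, which held that count, gave -6.61, a fitted value against 0 counts. Leaving out DMSO replicate 2 of D2 gave -3.33 and leaving out DMSO replicate 1 of D1 gave -3.28, and GATA3 was called in these 3 fits. GATA2 changed by -1.52 ± 0.42 with TCDD (edgeR adjusted p = 0.00308), and its value was -1.12 without TCDD replicate 2 of D2 (edgeR adjusted p = 0.0507) and -2.20 without TCDD replicate 1 of D2. With DMSO the GATA2 change was -0.91 ± 0.47 (edgeR adjusted p = 0.0988), which did not pass.

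**Figure D3:**
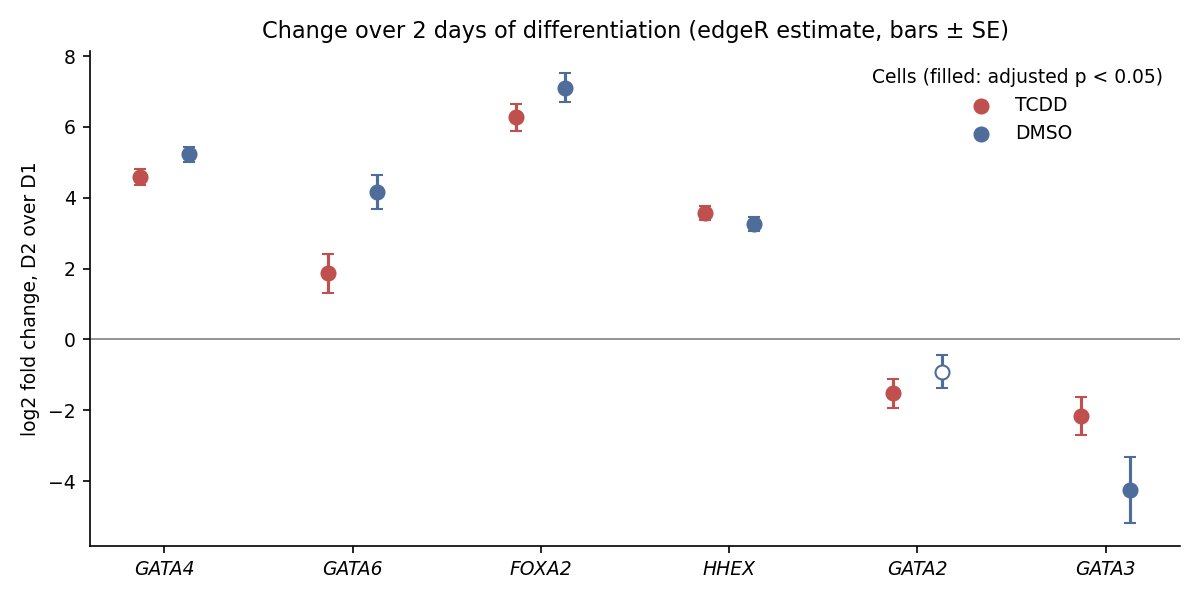
Change over 2 days of differentiation for the 6 tested genes, as the log2 fold change of D2 over D1 (y axis) in cells that had TCDD (red) or DMSO (blue), with bars of ± SE. Filled points passed an edgeR adjusted p of 0.05. FOXA2, GATA4, HHEX and GATA6 lie above 0 and GATA2 and GATA3 below, and the open point is GATA2 with DMSO.

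Levels between genes can be compared only per length. Divided by the exon length of each gene in GENCODE v29, which is of another build than the counts, the order at D2 with TCDD was HHEX (3.71 ± 0.196 CPM per kb), FOXA2 (1.97 ± 0.199) and GATA4 (1.95 ± 0.370), followed by GATA6 (0.0849), GATA2 (0.0462) and GATA3 (0.0328). With DMSO at D2 it was HHEX (3.68 ± 0.165 CPM per kb), GATA4 (2.92 ± 0.0600), FOXA2 (2.20 ± 0.290), GATA6 (0.243 ± 0.0495), GATA2 (0.0441) and GATA3 (0.00437). FOXA2 and GATA4 did not differ beyond their spread with TCDD, and the order of these 2 genes turned with DMSO. In ESCs HHEX again led, at 0.309 CPM per kb in TCDD D1 and 0.385 CPM per kb in DMSO D1. GATA3 and GATA2 came next at D1, at 0.148 and 0.139 CPM per kb with TCDD and 0.0975 and 0.0844 CPM per kb with DMSO, and the neighbours in that order overlap. GATA4 stood at 0.0794 CPM per kb in TCDD D1 and 0.0770 CPM per kb in DMSO D1, and GATA6 at 0.0228 CPM per kb in TCDD D1 and 0.0129 CPM per kb in DMSO D1.

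Genes next to the members on the chromosome were low. GATA2-AS1, GATA3-AS1 and GATA6-AS1, antisense to their namesakes, had at most 4 counts in any library and were not tested. The counting is not stated to use strand, so reads of a gene and of its antisense partner cannot be told apart. GATA2-AS1 had 1 to 4 counts a library beside the 4 to 21 counts of GATA2. LINC00261, a long non-coding gene beside FOXA2, had 28 and 24 counts in TCDD D2, 20 and 29 in DMSO D2, none in TCDD D1, and 1 and 0 in DMSO D1. It was called higher at D2 than at D1 with TCDD and with DMSO (edgeR adjusted p = 3.41e-07 and 1.30e-06), as FOXA2 was. C8orf49, which lies beside GATA4, had 7 and 10 counts in TCDD D2 and 12 and 18 in DMSO D2, so its TCDD libraries were below its DMSO libraries, but the difference of -0.82 ± 0.46 did not pass (edgeR adjusted p = 0.447).

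The relatives and cofactors of the GATA factors showed no call for TCDD. Of 12 listed genes 10 were tested, and at D2 none passed the edgeR test (1 had an unadjusted p under 0.05, and DESeq2 called 0), with a median log2 fold change of -0.01. GATA5, the third GATA factor of endoderm and heart, stood at 0.493 ± 0.0747 CPM in TCDD D2 and 0.395 ± 0.0952 CPM in DMSO D2 (log2 fold change 0.32 ± 0.34, edgeR adjusted p = 0.763). ZFPM1, which encodes the GATA cofactor FOG1, stood at 5.06 ± 0.113 CPM in TCDD D2 and 5.25 ± 0.702 CPM in DMSO D2. GATA1 and ZFPM2 were too low to test. At D1 none of the 10 passed either (2 had an unadjusted p under 0.05, and DESeq2 called 0). Between D2 and D1, 2 were higher and 3 lower with TCDD, and 3 higher and 5 lower with DMSO. Among all genes, 33.1% were higher and 32.2% lower with TCDD, and 32.5% higher and 30.7% lower with DMSO. None of the 10 passed for the difference of the TCDD effects, where 0.822% of all genes did. Of the 10, 4 had an unadjusted edgeR p under 0.05 there, and DESeq2 called 0. LMO4, an adaptor of GATA complexes, changed by -0.84 with TCDD and -0.81 with DMSO, and LDB1, its partner, by -0.49 with TCDD and -0.34 with DMSO. TRPS1, an atypical GATA repressor, changed by 0.75 with TCDD and 0.43 with DMSO. GATA5 differed by -0.19 with TCDD, which did not pass, and changed by -1.17 with DMSO.

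Other regulators and markers of definitive endoderm were partly lower with TCDD at D2. Of 15 listed genes 13 were tested, and 0 were higher, 4 lower and 9 did not pass. Among all genes 1.40% were higher and 1.50% lower. The list had a median of -0.20 beside 0.00 over all genes. DESeq2 called 3 of the list. The summed level of the 15 was 359 to 391 CPM in TCDD D2 and 623 to 664 CPM in DMSO D2. Most of this sum came from MIXL1 and EOMES, which are also on the list of streak markers given below. MIXL1, a homeobox factor of the streak, averaged 128 ± 12.5 CPM in TCDD D2 and 297 ± 15.9 CPM in DMSO D2 (log2 fold change -1.21 ± 0.06, edgeR adjusted p = 2.12e-10). EOMES, a T-box factor that acts upstream of endoderm genes, averaged 106 ± 6.93 CPM with TCDD and 191 ± 7.44 CPM with DMSO, a change of -0.86 ± 0.05. CER1, a secreted inhibitor of Nodal and BMP, averaged 14.6 ± 0.58 CPM with TCDD and 31.1 ± 2.56 CPM with DMSO, and GSC, a homeobox factor of the organizer, 4.18 ± 1.25 CPM with TCDD and 7.99 ± 0.631 CPM with DMSO. The 9 genes that did not pass, as FOXA2 and HHEX did not, lay on both sides of 0, from -0.77 for LHX1 and -0.31 for SOX18 to 0.13 for FOXA3 and 0.25 for CXCR4. FOXA1 and HNF4A were too low to test.

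Most genes of the endoderm list were higher at D2 than at D1. With TCDD 8 of 13 tested genes were higher and 1 lower, and with DMSO 10 were higher and 1 lower, where 33.1% of all genes were higher with TCDD and 32.5% with DMSO. MIXL1 rose by 6.58 ± 0.11 with TCDD and 7.68 ± 0.10 with DMSO, and GSC by 4.17 ± 0.29 and 5.19 ± 0.26. At D1 TCDD was associated with 1 higher gene, the LIM homeobox gene LHX1, at 0.661 ± 0.0772 CPM in TCDD D1 and 0.178 ± 0.0721 CPM in DMSO D1 (edgeR adjusted p = 0.0215), a call that DESeq2 did not make. Among all genes 0.735% were higher at D1. CER1 averaged 0.551 ± 0.0785 CPM in TCDD D1 and 1.52 ± 0.859 CPM in DMSO D1, a log2 fold change of -1.45 ± 0.39 that did not pass (edgeR adjusted p = 0.157). LHX1 averaged 0.361 ± 0.161 CPM in TCDD D2 and 0.630 ± 0.00335 CPM in DMSO D2. For the difference of the TCDD effects 2 genes of the list passed, LHX1 (-2.64 ± 0.54, edgeR adjusted p = 0.0182) and MIXL1, both in the lower direction. Among all genes 0.295% passed in that direction, and DESeq2 called 1 of the list. LHX1 had few counts, 29 in TCDD D2, 49 in DMSO D2, 52 in TCDD D1 and 14 in DMSO D1.

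Nodal signalling, which sets endoderm fate in a dose-dependent way, was counted through 13 genes. At D2, 1 was higher and 3 lower with TCDD, where 1.40% of all genes were higher and 1.50% lower, with a median of 0.01. GDF3, a ligand that acts with Nodal, averaged 16.0 ± 1.47 CPM in TCDD D2 and 28.5 ± 0.678 CPM in DMSO D2. The feedback inhibitors were lower too, with LEFTY1 at 17.9 ± 0.356 CPM in TCDD D2 and 38.5 ± 0.748 CPM in DMSO D2, and LEFTY2 at 17.8 ± 0.953 CPM in TCDD D2 and 27.5 ± 2.47 CPM in DMSO D2. FOXH1, the DNA-binding partner of SMAD2 and SMAD3, was the higher one, at 167 ± 1.60 CPM in TCDD D2 and 133 ± 3.90 CPM in DMSO D2. NODAL, the ligand, averaged 263 ± 15.3 CPM in TCDD D2 and 291 ± 16.7 CPM in DMSO D2 (log2 fold change -0.15 ± 0.06, edgeR adjusted p = 0.239). At D1, 1 gene of the list was higher and 2 lower with TCDD, where 0.735% of all genes were higher and 0.405% lower. DESeq2 called 2 of the list at D1. LEFTY1 averaged 2.19 ± 0.0295 CPM in TCDD D1 and 5.51 ± 2.00 CPM in DMSO D1 (log2 fold change -1.32 ± 0.22, edgeR adjusted p = 0.0211). LEFTY2 changed by -0.62 ± 0.13 (edgeR adjusted p = 0.0193), and SMAD3, which carries the Nodal signal, was the higher one, by 0.24 ± 0.05 (edgeR adjusted p = 0.0304). LEFTY1 and LEFTY2 are close paralogs and their split of reads is uncertain.

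**Figure D4:**
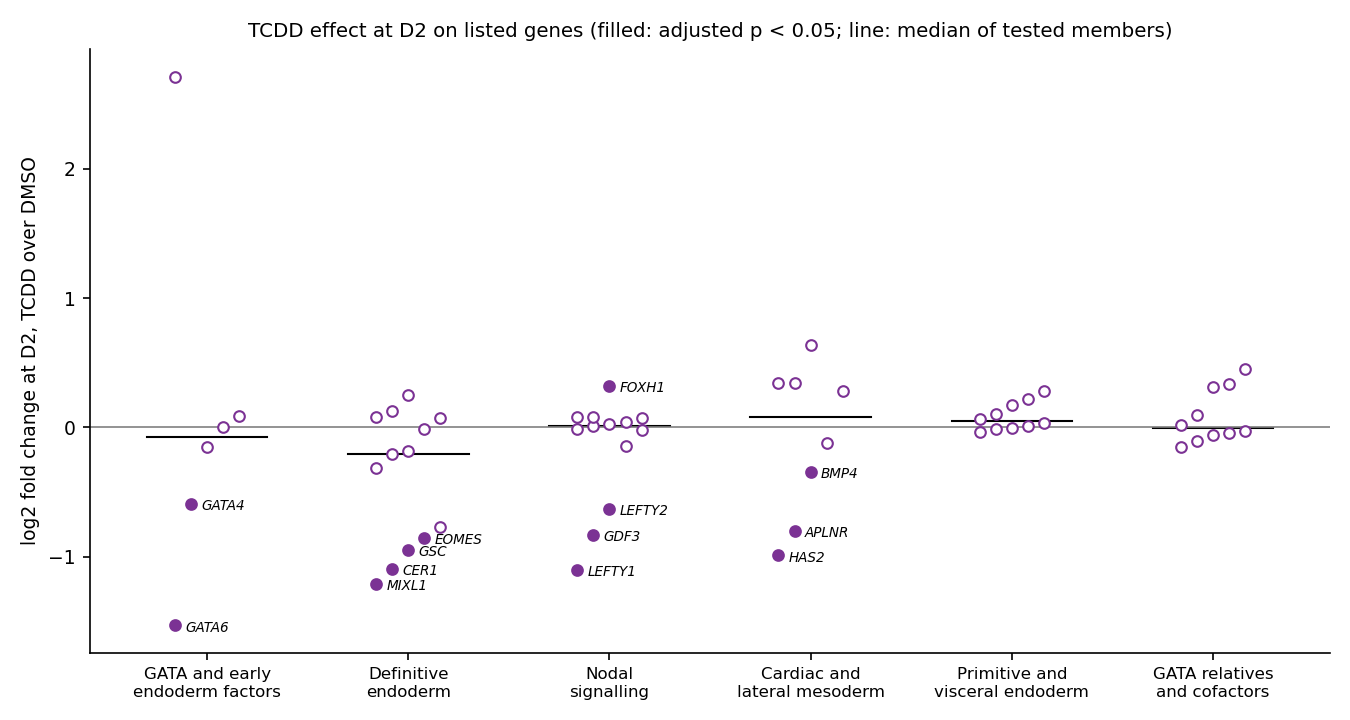
TCDD effect at D2 on the members and on 5 lists of related genes, as the log2 fold change of TCDD over DMSO (y axis). Each point is a tested gene, filled and named where it passed an edgeR adjusted p of 0.05, and lines are medians of the tested genes of a list. The named points of the members (GATA4, GATA6), of definitive endoderm and of cardiac mesoderm lie below 0, and FOXH1 is the named point above 0.

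GATA4 and GATA6 are also factors of the heart lineage, and 14 partners of that lineage were listed, of which 8 were tested. At D2, 0 were higher and 3 lower with TCDD, where 1.50% of all genes were lower, with a median of 0.08. DESeq2 called 1 of the list at D2. HAS2, a hyaluronan synthase of cardiac mesoderm, averaged 9.97 ± 1.11 CPM with TCDD and 19.7 ± 0.143 CPM with DMSO, APLNR, the apelin receptor, 1.64 ± 0.261 CPM with TCDD and 2.90 ± 0.727 CPM with DMSO, and BMP4, a ligand, 10.8 ± 1.39 CPM with TCDD and 13.6 ± 0.0320 CPM with DMSO. At D1, 0 were higher and 2 lower with TCDD, where 0.405% of all genes were lower, and DESeq2 called 1. The 2 were KDR, a receptor of VEGF, by -0.29 ± 0.06 (edgeR adjusted p = 0.0125) and BMP4 by -0.41 ± 0.09 (edgeR adjusted p = 0.0288). Later heart factors, among them NKX2-5, TBX5 and HAND2, were too low to test. GATA4 was thus counted at D2 while cardiac genes that it is known to act with were at or near 0.

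The summed level of 10 streak and early mesoderm markers was lower in TCDD D2 than in DMSO D2. It was 500.4 to 571 CPM in TCDD D2 and 833 to 858 CPM in DMSO D2, against 11.9 to 12.3 CPM across the 4 D1 libraries. None of the 10 was at 0 in a D2 group, and 2 were at 0 in each D1 group. Of 9 tested, 0 were higher and 5 lower with TCDD at D2, where 1.40% of all genes were higher and 1.50% lower. The median was -0.86, and MIXL1, EOMES and GSC are on this list as well as on the endoderm list. T, the brachyury factor of the streak, averaged 48.6 ± 4.76 CPM with TCDD and 90.5 ± 3.11 CPM with DMSO. The 4 that did not pass lay on both sides. SP5 averaged 215 ± 22.7 CPM in TCDD D2 and 200 ± 9.59 CPM in DMSO D2. MESP1 averaged 1.32 ± 0.0423 CPM in TCDD D2 and 1.04 ± 0.0428 CPM in DMSO D2. EVX1 and TBX6 had lower means with TCDD. Among the stem cell markers 1 was higher and 0 lower with TCDD at D2, beside the same shares of all genes. The higher one was SOX2, at 361 ± 14.9 CPM in TCDD D2 and 240 ± 8.60 CPM in DMSO D2. The part of these shifts in the GATA4 and GATA6 result was not tested.

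Primitive and visceral endoderm, the extraembryonic tissue that uses GATA4, GATA6 and SOX17, was listed by 13 genes with 10 tested, and at D2 none passed the edgeR test for TCDD (1 had an unadjusted p under 0.05, and DESeq2 called 0), with a median of 0.05. Of its defining secreted products, TTR had no count at D2 and AFP stood at 0.146 ± 0.105 CPM in TCDD D2 and 0.0516 ± 0.00420 CPM in DMSO D2. The list's summed level was 1120 to 1142 CPM in TCDD D2 and 1082 to 1112 CPM in DMSO D2. Nearly all of it came from the matrix genes LAMA1, LAMB1, COL4A1, COL4A2 and SPARC. SPARC, which many cells express, stood at 381 ± 6.62 CPM in TCDD D2 and 378 ± 10.3 CPM in DMSO D2.

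Trophoblast and amnion, the settings of GATA2 and GATA3, were listed by 13 genes of which 5 were tested. With TCDD and with DMSO alike 1 was higher and 3 lower at D2 than at D1, where 32.2% of all genes were lower with TCDD and 30.7% with DMSO. Among the lower ones were GABRP, a receptor subunit of amnion, which changed by -3.51 with TCDD and -3.41 with DMSO, and KRT7, a simple-epithelium keratin, which changed by -2.93 with TCDD and -3.34 with DMSO. CDX2, a caudal factor of trophoblast and of the late streak, was the higher one, by 7.59 ± 0.25 with TCDD and 6.57 ± 0.27 with DMSO. It was also the single gene of the list called for TCDD at D2, where 1.40% of all genes were higher. CDX2 averaged 15.3 ± 1.75 CPM in TCDD D2 and 8.69 ± 1.13 CPM in DMSO D2 (log2 fold change 0.81 ± 0.11). The list's summed level was 38.9 to 40.0 CPM in TCDD D2, 29.9 to 30.6 CPM in DMSO D2, 59.6 to 69.9 CPM in TCDD D1 and 59.1 to 66.6 CPM in DMSO D1.

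Blood and endothelium, where GATA2 and HHEX act early, were listed by 11 genes with 8 tested. At D2 none passed the edgeR test for TCDD (1 had an unadjusted p under 0.05, and DESeq2 called 0), with a median of 0.26. RUNX1, the factor of definitive blood formation, stood at 2.13 ± 0.726 CPM in TCDD D2 and 1.25 ± 0.157 CPM in DMSO D2 (edgeR adjusted p = 0.0958). Between D2 and D1, RUNX1 rose by 1.49 with TCDD and 1.86 with DMSO, while 2 genes of the list fell with TCDD and 6 with DMSO. Among all genes 32.2% were lower with TCDD and 30.7% with DMSO. The arms are not shown to differ. None of the 8 tested passed for the difference of the TCDD effects (DESeq2 called 0), where 0.822% of all genes did.

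The genes whose pattern over the 8 libraries was most like that of each member were found by the Pearson correlation of log2 CPM, among up to 13726 genes that averaged 1 CPM or more. The libraries fall into D1 and D2, which sets most of any correlation, so the values are descriptions. GATA4 was nearest to KCNA5 (r = 0.999), ST8SIA2 (0.999) and NFATC2IP (0.998), FOXA2 to STT3A, KLF7 and ABLIM1 (0.998 to 0.997), and HHEX to CNOT10, TBX3 and LNPK (0.999 to 0.998). Between 2279 and 2495 genes had an r above 0.95 with each of these 3, so the neighbours are not particular to them. GATA6 had 126 such genes, among the nearest SNAI1 (0.990), a zinc finger repressor of epithelial genes, and SUCLA2 (0.980). GATA2 was nearest to SLC22A31 (0.979) and had 24 genes above 0.95, and GATA3 was nearest to ATP2C2 (0.982) and had 33. These 3 genes had few counts, at most 45 in a library for GATA6, 21 for GATA2 and 22 for GATA3. GATA4, FOXA2 and HHEX reached 462, 229 and 355. The part of low counts in the numbers of neighbours was not tested.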

How the data were processed

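Total RNA of MEL1 cells was sequenced in 8 libraries, grouped by the sample titles. The authors deposited 1 table per library of raw read counts per gene symbol, which are whole numbers and not normalised. Trimming used cutadapt 1.9.1, alignment STAR and counting featureCounts 1.5.1, all on hg19, per the submitters' processing notes. The sources used here give neither the annotation nor the strand setting, nor what was done with multimapping reads. Of 27317 symbols, 4199 had no count in any library. Library totals ran from 34873055 to 43770420 counts.

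Low genes were removed with filterByExpr of edgeR 4.0.16 (R 4.3.3, limma 3.58.1), which left 17268. TMM factors were 0.958 to 1.04, and CPM was computed from totals scaled by them. A single quasi-likelihood model of the 4 group means took in all 8 libraries, with a common biological coefficient of variation of 3.86%. Robust squeezing of the dispersions was set after the tables were read, to match an earlier analysis of them. The F tests are two-sided; p-values were adjusted by the Benjamini-Hochberg method over all genes tested, with a threshold of 0.05. SEs were derived from the F statistic and 95% intervals from the SE. The 5 comparisons were TCDD against DMSO at D2 and at D1, D2 against D1 with TCDD and with DMSO, and the difference of the TCDD effects. The script was tested on simulated counts.

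The 7 genes and the lists were chosen with earlier results of these data known. The members are named whatever their values. Of each list, up to 4 called genes with the smallest p in a comparison are named, and any other listed gene was chosen after its values were seen. Correlations of patterns took log2 CPM (prior count 2) and the 3 nearest genes, passing over symbols that begin with LOC, MIR, SNOR or LINC or contain -AS. The result for 1 gene that this rule names is not reported here. The lists are tied by shared genes. Comparisons at one time or in one arm share libraries, and their values are given side by side.

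Replicates differed by more than sampling noise, with a chi-square per gene of 6.59 for TCDD D1, 3.86 for DMSO D1, 4.43 for TCDD D2 and 3.21 for DMSO D2 over genes with at least 20 counts. Whether they came from separate cultures is not given, so the p-values reflect the spread of these libraries alone, which may be technical. Ratios of summed counts carry exact 95% intervals, and the limit for 0 counts is 3 counts over a group. Both cover counting error only, since PCR copies are not independent molecules. Promoter windows came from RefSeq on GRCh38.p14 and gene lengths from GENCODE v29, neither of which is the build of the counts. Alternatives were DESeq2 1.42.0, other size factors, no composition scaling, no filter beyond 1 count, a replicate block, the compared groups alone, non-robust squeezing and each library left out.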

Additional observations from a re-analysis of the deposited data

How the results depend on the processing

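The number of members called at D2 for TCDD against DMSO was 2 in the fit as reported and 1 with DESeq2, which gave GATA6 no adjusted p, and ran from 0 to 2 when each library was left out. It was 0 without DMSO replicate 2 of D2 and without TCDD replicate 1 of D2, where GATA4 stood at -0.57 and -0.40 and GATA6 at -1.30 and -1.31 on the log2 scale. For D2 against D1 it was 6 with TCDD (5 to 6 with a library left out) and 5 with DMSO (4 with the compared groups alone, which tested 5 members). At D1, and for the difference of the TCDD effects, 0 members were called under each alternative run. The calls that were lost in D2 against D1 with TCDD were GATA6 (1.57) without TCDD replicate 1 of D1 and GATA2 (-1.12) without TCDD replicate 2 of D2.

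Over all values and alternatives, 409 kept direction and side of the threshold, 6 fell short of it and 13 changed sign, all 13 of members not called. For TCDD against DMSO with a library left out, the D1 values ran from -0.23 to 0.40 for GATA4 (-0.08 without TCDD replicate 1), from -0.78 to 0.40 for HHEX and from -3.68 to 4.38 for FOXA2 (-0.26 without DMSO replicate 2). The D2 values ran from -0.044 to 0.063 for HHEX (-0.011 with no composition scaling) and from -0.59 to 0.50 for GATA2 (-0.13 without DMSO replicate 1). For the difference of the TCDD effects, HHEX ran from -0.40 to 0.79 and FOXA2 from -4.53 to 3.52 (0.11 without DMSO replicate 2 of D1). The cause was not tested. The replicate block left the member calls at 2, 6, 5, 0 and 0, and the deviations of same-numbered libraries correlated between -0.10 and 0.11, so the numbers are not shown to pair the libraries.

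The count of all genes called for TCDD at D1 was 197, 480 with no filter beyond 1 count, and 78 without DMSO replicate 1 of D1. At D2 it was 500, 885 with no filter, and 215 without DMSO replicate 1, 268 without DMSO replicate 2 and 248 without TCDD replicate 2 of D2. For the difference of the TCDD effects it was 142, 433 with no filter and 53 to 269 with a library left out. With no composition scaling the all-gene median of D2 against D1 with TCDD was -0.11. Depth limits the D1 values, where GATA6 and FOXA2 had at most 5 counts a library.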

Other observations

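Further genes of the streak and of early endoderm gave mixed values at D2. WNT3, a Wnt ligand of the streak, averaged 21.0 ± 0.498 CPM in TCDD D2 and 41.2 ± 1.38 CPM in DMSO D2 (log2 fold change -0.97 ± 0.07, edgeR adjusted p = 2.17e-08). PRDM1, a repressor active in early endoderm, averaged 2.90 ± 0.0216 CPM in TCDD D2 and 3.30 ± 0.187 CPM in DMSO D2 (edgeR adjusted p = 0.649). SOX7, an F-group SOX gene like SOX17, averaged 2.31 ± 0.62 CPM in TCDD D2 and 2.63 ± 0.0587 CPM in DMSO D2 (edgeR adjusted p = 0.719), and it was higher at D2 than at D1 by 1.07 ± 0.23 with TCDD and 1.20 ± 0.23 with DMSO. SOX18, the third gene of that group, averaged 0.659 ± 0.0755 CPM in TCDD D2 and 0.816 ± 0.188 CPM in DMSO D2. FOXA3, a relative of FOXA2, stood at 21.8 ± 1.23 CPM in TCDD D2 and 23.6 ± 0.248 CPM in TCDD D1, and at 19.9 ± 1.82 CPM in DMSO D2 and 22.0 ± 1.21 CPM in DMSO D1, neither of which passed (edgeR adjusted p = 0.179 and 0.110).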
